A study of Homo sapiens with 12 samples.

Results

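The 46 genes described here encode the machinery that copies DNA in S phase: the factors that license origins and form the replicative helicase, the cyclins and transcription factor that start S phase, the sliding clamp and its loader, the polymerases, the enzymes that supply nucleotides, and the proteins that rebuild chromatin behind the fork. They were taken as a list of gene symbols, with older symbols of the same gene counted, and each had to have a probe that was detected, at a detection p below 0.05, on each array of 1 or more groups. All 46 met this, out of 12117 genes measured, and every one was detected on all 12 arrays. The question put to them was how they changed when H1299 cells received the same GAPDH siRNA by different routes.

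Before S phase, the origin recognition complex, CDC6 and CDT1 load the MCM helicase onto origins. Cyclin E with its kinase then helps to activate it together with CDC45 and the GINS complex. Many of these genes are known targets of the E2F transcription factors, which are held back by the retinoblastoma protein in G1, so in proliferating tumour cells they are usually expressed together and most strongly around the start of S phase.

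H1299 cells derive from a human lung carcinoma of the non-small cell type and were grown in DMEM with 10% FCS. There were 3 treatments of 6 h, after which the cells were washed and collected at 12 or 24 h. The first was GAPDH siRNA given by lipofection, the standard lipid carrier method. The next was GAPDH siRNA given with PTD-DRBD, a fusion of a peptide transduction domain with a domain that binds duplex RNA. The control was PBS buffer alone. Each of the 6 groups had 2 Illumina arrays, so no group received a carrier without siRNA or with another siRNA, and an effect of the carrier, of the siRNA and of GAPDH loss cannot be told apart. Whether the replicate arrays stem from independent cultures is not said in the labels, and the p-values then measure only the spread between these arrays, which may be technical.

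GAPDH, the target, was reduced in every treated group. Its level fell to 41.6% of control with lipofection and to 9.77% with PTD-DRBD at 12 h, and to 51.3% and 14.0% at 24 h. The arrays had between 17990 and 19097 detected probes and a median raw intensity between 61.3 and 73.1. Of 6 markers chosen for the line, KRT8, KRT18, VIM and, at no more than 5.59 log2, CDH1 were detected while KRT19 and EPCAM were not. Of 13 markers of blood, endothelial and fibroblast cells, 3 were detected, with PTPRC and PECAM1 at most at 5.59 and 5.23 log2 and CD68 between 11.65 and 12.15 log2. The RNA came from cells in bulk, so fewer cells in a phase of the cycle and less RNA per cell cannot be told apart.

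Levels below are log2 of the normalized intensity, with 1 probe per gene, and differences are log2 fold changes with their standard error (SE). A gene was called when its p from limma, adjusted by the Benjamini-Hochberg method over all 12117 genes, was under 0.05. An exact permutation test of 2 arrays against 2 cannot give a p below 0.333, so the calls rest on the spread shared by all groups. The median SD between the replicate arrays of a group was between 0.03 and 0.06 log2 for these genes.

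Lipofection lowered 9 of the 46 genes at 12 h and 11 at 24 h, and raised none at either time. With any 1 array left out, the 12 h count was 4 to 5 and the 24 h count 5 to 15, all lower. With the authors' normalized values, an intensity trend or no background correction, the 24 h count was 18 lower and 1 higher. The 12 h falls included the helicase subunit MCM6 (-0.75 ± 0.09 log2), cyclin E1 (CCNE1, -0.66 ± 0.11) and the initiation factor MCM10 (-0.63 ± 0.07). The 24 h falls included the ribonucleotide reductase subunit RRM2 (-0.71 ± 0.14), the polymerase alpha subunit POLA2 (-0.65 ± 0.07) and the chromatin assembly subunit CHAF1A (-0.54 ± 0.09). POLE2 and RFC5 were called at both times, which is 22.2% of the 12 h falls and 18.2% of the 24 h falls. Over all genes tested, lipofection called 4.95% higher and 6.92% lower at 12 h, and 10.6% higher and 12.9% lower at 24 h. With PTD-DRBD, 1 of the 46 genes was called higher and none lower at 12 h, against 3.42% higher and 4.46% lower over all genes. That direction depended on the processing: 1 was higher and 5 lower with the authors' normalized values, and 2 were higher and 4 lower with an intensity trend or no background correction. At 24 h none was higher and 3 were lower, 6.52%, against 5.87% and 8.15%. This share, and the 2.17% called higher at 12 h, lie under those of all genes.

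The median difference of the 46 genes with lipofection was -0.08 log2 at 12 h, with 33 of 46 below 0, and -0.19 log2 at 24 h, with 38 below 0. Among those not called, 24 of 37 lay below 0 at 12 h and 27 of 35 at 24 h. The medians with PTD-DRBD were -0.01 and -0.08 log2. Over all genes tested, the median lay between -0.01 and 0.01 in each of these 4 comparisons. At 24 h the members' median against the control mean was -0.13 on the first and -0.20 on the second lipofection array, and -0.05 on the first and -0.11 on the second PTD-DRBD array. With the second array of both treated groups left out, 6 members remained called lower with lipofection at 24 h (CHAF1A, POLA2, POLD1, RFC5, RRM2 and TYMS), and none with PTD-DRBD.

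**Figure D1:**
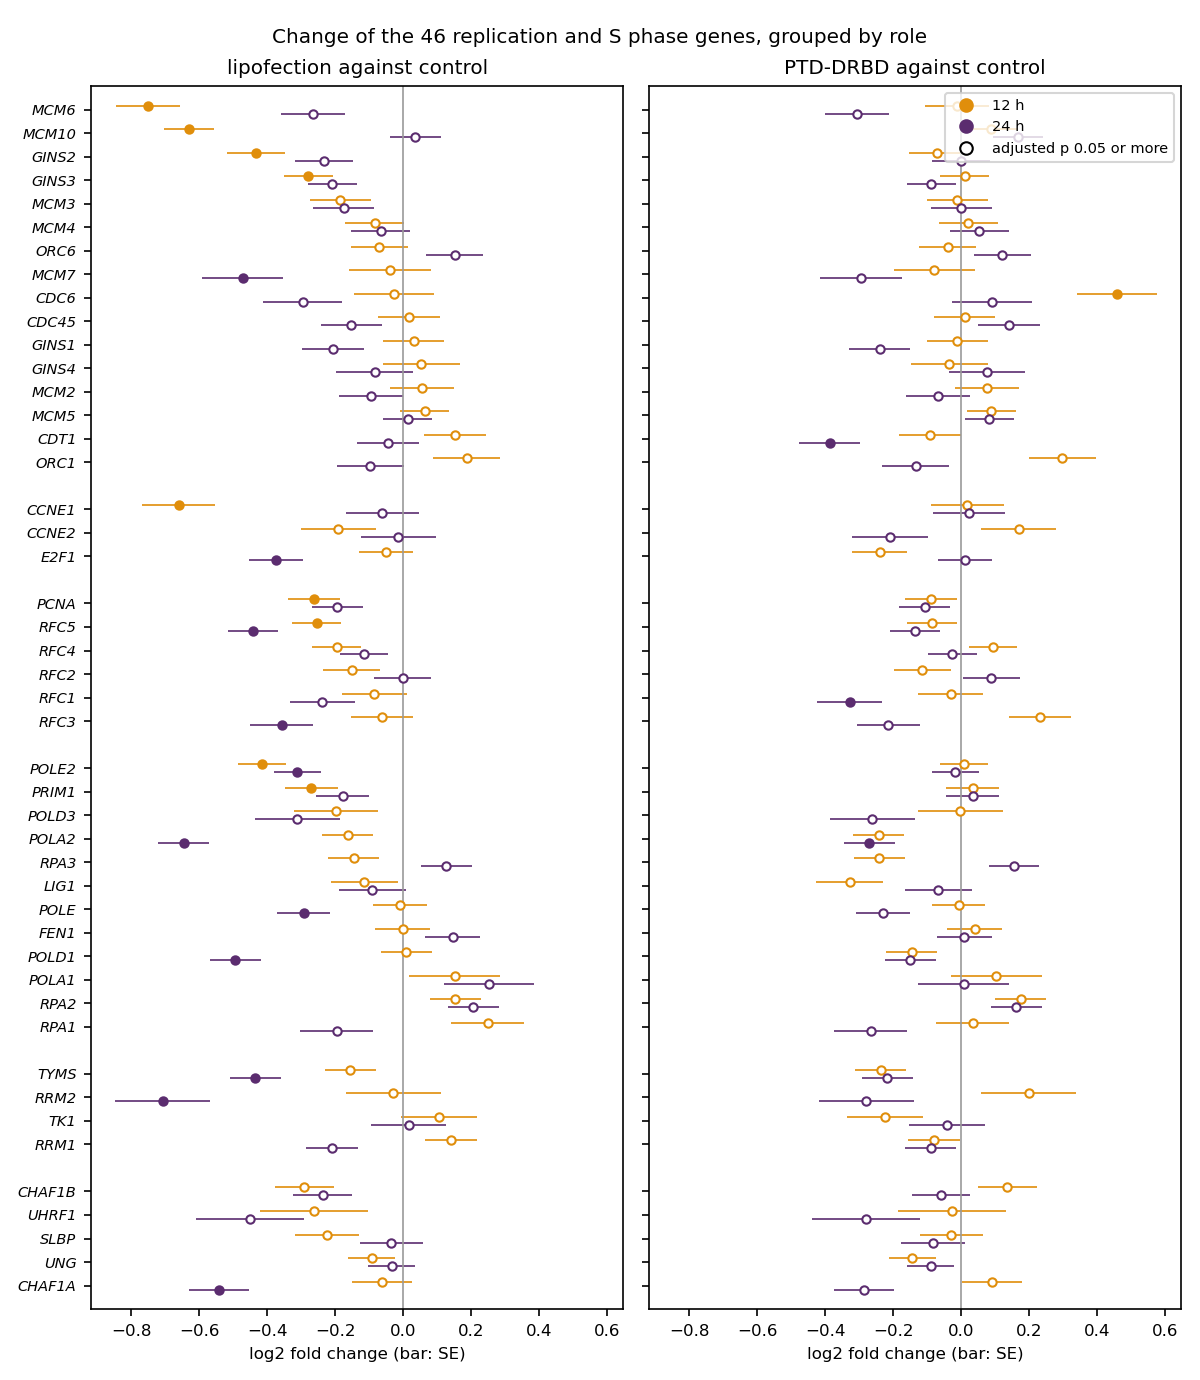
Log2 fold change (x axis) of each of the 46 genes (rows, grouped by role) against control, with lipofection on the left and PTD-DRBD on the right, at 12 h (orange) and 24 h (purple). Bars are SE from the fit, and filled points passed the adjusted p of 0.05: 9 and 11 genes with lipofection, all lower, and 1 higher and 3 lower with PTD-DRBD.

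The promoters of some of these genes, but not of all, hold a sequence in common. The E2F motif was searched as TTT, then 2 letters each C or G, then CGC, on both strands, in the RefSeq promoter windows of 250 bases before to 50 after the annotated start (GRCh38.p14). It was found in 19 of the 39 member promoters in the table (48.7%), against 3.31% of 35116 promoters of all genes and 5.45% of 9919 promoters of the genes tested. The windows of CCNE2, GINS4, MCM4, MCM5, POLD3, RPA2 and RPA3 were not used here. The 100 bases before the start are shown for some of the genes called against control, picked mostly from those with a match. Some of these calls were lost when an array was left out, as given below. Each sequence reads 5′ to 3′ on the gene's own strand, with motif letters in capitals. MCM6, which fell most at 12 h, lies on the minus strand at chr2:135876444-135876543. POLA2 (plus strand, chr11:65261862-65261961), TYMS (plus, chr18:657553-657652), RFC3 (plus, chr13:33818049-33818148) and E2F1 (minus, chr20:33686386-33686485) fell at 24 h. PCNA (minus, chr20:5126623-5126722) fell at 12 h, and CDT1 (plus, chr16:88803689-88803788) fell with PTD-DRBD. MCM10 (plus, chr10:13161458-13161557) is shown as a gene that fell and whose window holds no match.
MCM6: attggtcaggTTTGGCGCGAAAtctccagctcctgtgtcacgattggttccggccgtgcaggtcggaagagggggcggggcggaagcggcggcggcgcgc
POLA2: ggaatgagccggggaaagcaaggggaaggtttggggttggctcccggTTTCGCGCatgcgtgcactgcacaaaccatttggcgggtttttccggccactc
TYMS: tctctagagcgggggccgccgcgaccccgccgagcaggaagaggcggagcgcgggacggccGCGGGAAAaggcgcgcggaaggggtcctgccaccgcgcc
RFC3: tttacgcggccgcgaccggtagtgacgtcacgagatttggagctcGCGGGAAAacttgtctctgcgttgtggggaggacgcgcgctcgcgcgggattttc
E2F1: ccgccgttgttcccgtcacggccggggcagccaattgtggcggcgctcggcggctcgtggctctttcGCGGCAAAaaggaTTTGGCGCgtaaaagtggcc
PCNA: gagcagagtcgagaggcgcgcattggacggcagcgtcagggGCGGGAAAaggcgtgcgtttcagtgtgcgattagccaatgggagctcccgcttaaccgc
CDT1: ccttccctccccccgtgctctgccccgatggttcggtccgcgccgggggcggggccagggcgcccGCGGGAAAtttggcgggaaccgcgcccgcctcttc
MCM10: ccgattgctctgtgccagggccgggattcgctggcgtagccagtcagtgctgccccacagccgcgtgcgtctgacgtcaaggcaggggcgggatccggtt
In MCM6 a match on the gene's strand and a match on the other strand overlap, and another such pair lies upstream of the bases shown, so its window holds 4 matches at 2 places. E2F1 has 2 matches that do not overlap. The other matches shown are single, and in POLA2 alone of these single matches the motif reads on the gene's own strand. The match nearest to the start begins 86 bases upstream in MCM6, 20 in E2F1, 53 in POLA2, 39 in TYMS, 55 in RFC3, 59 in PCNA and 35 in CDT1. Among the members with a promoter in the table, lipofection called lower 5 of 19 with the motif and 4 of 20 without at 12 h. At 24 h it called lower 7 of 19 with the motif and 4 of 20 without. Over all genes, with or without the motif, 6.92% and 12.9% were lower at these times. With PTD-DRBD at 24 h, 2 of 19 with the motif and 1 of 20 without were lower, against 8.15% of all genes. The other genes tested were not split by the motif, and a link between motif and call was not tested. CCNE1, PRIM1, RFC1, RFC5, POLD1, CHAF1A and RRM2, which were also called against control, had no match in these windows, like MCM10. The lack of a match says nothing about binding of the factor.

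**Figure D2:**
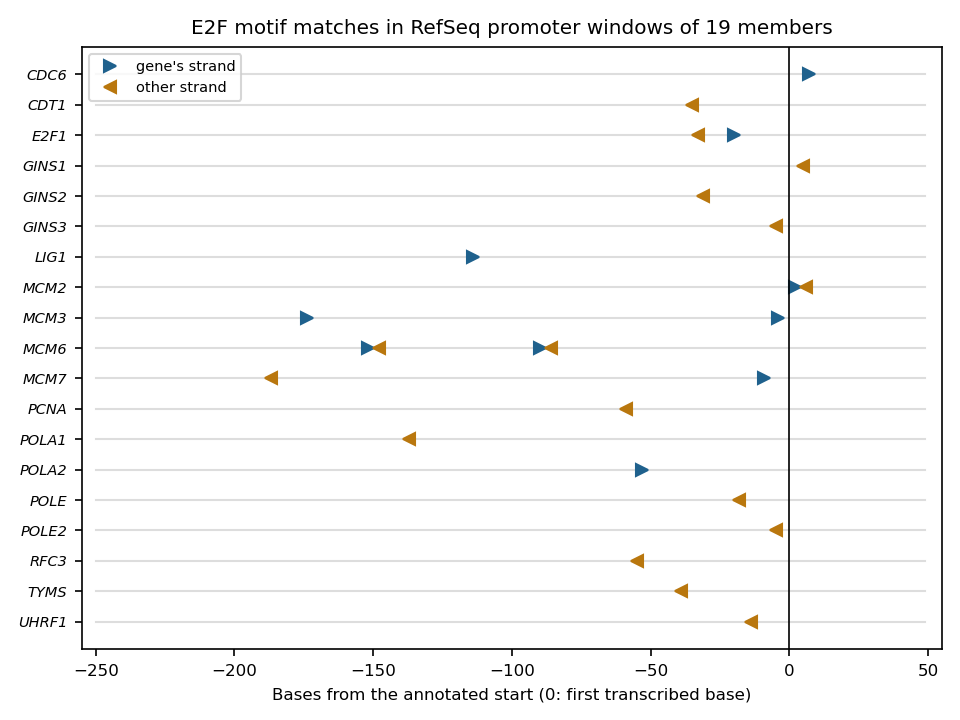
Place of each E2F motif match (x axis, bases from the annotated start) in the promoter windows of the 19 members that hold it (rows). Blue triangles are matches on the gene's strand and orange triangles matches on the other strand; most lie within the last 100 bases before the start or just after it, while MCM6 has a pair of overlapping matches at 2 places.

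Among the 16 licensing and helicase genes, lipofection lowered 4 at 12 h and 1 at 24 h. These shares, 25% and 6.25%, stand against 6.92% and 12.9% lower over all genes, so the 24 h share is under that of all genes. The role counts below, of 3 to 12 genes each, are to be read against the same shares of all genes. MCM6, a subunit of the MCM helicase ring, was at 8.23 and 8.25 with lipofection and at 8.92 and 9.04 with PTD-DRBD, against 9.00 and 8.99 in control at 12 h. Both lipofection arrays lay clearly under the other 4, and the level was 59.5% of control (adjusted p = 0.000587). At 24 h it was at 9.15 and 8.87 with lipofection and 8.92 and 9.01 with PTD-DRBD, against 9.29 and 9.25 in control, differences of -0.26 (adjusted p = 0.0627) and -0.31 (adjusted p = 0.0518) that did not pass. MCM10, which links the helicase to polymerase alpha, was at 9.92 and 9.95 with lipofection and 10.66 and 10.64 with PTD-DRBD, against 10.54 and 10.59 in control at 12 h. Its fall of 0.63 on the log2 scale had the smallest adjusted p of the 46 genes at that time (0.000372). By 24 h its lipofection arrays, at 10.45 and 10.39, overlapped the control arrays, at 10.35 and 10.42, and PTD-DRBD was at 10.61 and 10.49. Of the other subunits of the MCM ring at 12 h, MCM2, MCM3, MCM4, MCM5 and MCM7 had differences of 0.06, -0.19, -0.08, 0.06 and -0.04 log2, and none was called.

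The GINS complex, which joins the helicase when it is activated, had 2 of 4 subunits lower at 12 h, where 6.92% of all genes were lower. GINS2 was at 11.15 and 11.22 with lipofection and 11.59 and 11.50 with PTD-DRBD, against 11.52 and 11.72 in control, a difference of -0.43 ± 0.08 (adjusted p = 0.00731). The groups did not overlap, but the adjusted p was 0.0687 without the second control array and 0.0669 without the first lipofection array. GINS3 was at 9.92 and 9.84 with lipofection and 10.12 and 10.22 with PTD-DRBD, against 10.16 and 10.16 in control, a difference of -0.28 ± 0.07. Its adjusted p was 0.0278, and 0.0863 to 0.192 with any 1 of the 4 arrays left out. At 24 h GINS2 (-0.23) and GINS3 (-0.21) stayed lower than control without passing (adjusted p = 0.0665 and 0.0556). GINS1 and GINS4 were within 0.06 log2 of control at 12 h, and at -0.21 and -0.08 at 24 h.

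MCM7 was called with lipofection at 24 h, and its change of effect with time did not pass (-0.43 ± 0.17, adjusted p = 0.133). At 12 h its arrays overlapped, with 14.62 and 14.64 with lipofection, 14.39 and 14.78 with PTD-DRBD and 14.71 and 14.62 in control. At 24 h it was at 14.33 and 14.20 with lipofection and 14.53 and 14.36 with PTD-DRBD, against 14.80 and 14.68 in control, a fall of 0.47 with lipofection (SE 0.12, adjusted p = 0.0163). The adjusted p was 0.0977 without the first control array and 0.107 when the second lipofection array was left out at 24 h. MCM7 has 3 detected probes, and the other 2 also fell at 24 h, by 0.66 and 0.46 on the log2 scale (limma adjusted p = 0.00281 and 0.0154 over all probes tested).

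The licensing factors CDC6 and CDT1, which load the MCM ring, were called with PTD-DRBD and not with lipofection. CDC6 was at 6.87 and 7.11 with PTD-DRBD, and 6.61 and 6.39 after lipofection, against 6.62 and 6.44 in control at 12 h, a rise of 0.46 ± 0.12 with PTD-DRBD (adjusted p = 0.0373). By the probes used, no other of the 46 genes was called higher than control in the 4 comparisons, and its adjusted p was 0.0519 to 0.210 with any 1 of the 4 arrays left out. CDT1 was at 11.80 and 11.52 with PTD-DRBD, and 12.04 and 11.96 after lipofection, against 12.05 and 12.04 in control at 24 h. The PTD-DRBD difference was -0.39 ± 0.09 (adjusted p = 0.0217), and -0.25 without the second PTD-DRBD array (adjusted p = 0.177). Leaving out the first or the second control array also ended that call (adjusted p = 0.0855 and 0.0935). At 12 h CDT1 was at 11.66 and 11.71 with PTD-DRBD, and 11.93 and 11.92 after lipofection, against 11.80 and 11.75 in control. CDC6 at 24 h was at 6.74 and 6.64 with PTD-DRBD, and 6.38 and 6.22 after lipofection, against 6.69 and 6.50 in control. The remaining licensing genes, ORC1, ORC6, CDC45, MCM2, MCM3, MCM4, MCM5, GINS1 and GINS4, were called in none of the comparisons with control, and ORC1 at 0.30 ± 0.10 with PTD-DRBD at 12 h (adjusted p = 0.0893) was the farthest from it.

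Of the 3 S phase entry genes, cyclin E1 fell at 12 h and E2F1 at 24 h. The change of the lipofection effect with time passed for CCNE1 and not for E2F1 (-0.32 ± 0.11, adjusted p = 0.0996). CCNE1, the activating partner of the kinase CDK2, was at 7.41 and 7.39 with lipofection and 8.10 and 8.05 with PTD-DRBD, against 7.96 and 8.15 in control at 12 h. It was at 63.3% of control (adjusted p = 0.00294), and both lipofection arrays lay below all others. At 24 h CCNE1 was at 7.99 and 7.91 with lipofection and 8.20 and 7.86 with PTD-DRBD, against 8.03 and 7.99 in control, which is a difference of -0.06 with lipofection (adjusted p = 0.709). E2F1, a transcription factor that activates many replication genes, was at 9.60 and 9.50 with lipofection and 9.96 and 9.90 with PTD-DRBD, against 10.00 and 9.84 in control at 24 h. Its fall of 0.37 on the log2 scale had an adjusted p of 0.00752, which became 0.0629 without the first control array and 0.0631 when the second lipofection array was left out. At 12 h E2F1 was at 9.73 and 9.75 with lipofection and 9.60 and 9.50 with PTD-DRBD, against 9.78 and 9.80 in control. CCNE2, the other E-type cyclin, was not called against control, with -0.19 at 12 h and -0.01 at 24 h with lipofection by the probe used. A second, dimmer CCNE2 probe, detected on all 12 arrays, differed more at 24 h without passing. It gave -0.47 with lipofection and -0.41 with PTD-DRBD (limma adjusted p = 0.0747 and 0.136 over all probes tested). At 12 h it gave -0.12 and 0.26.

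**Figure D3:**
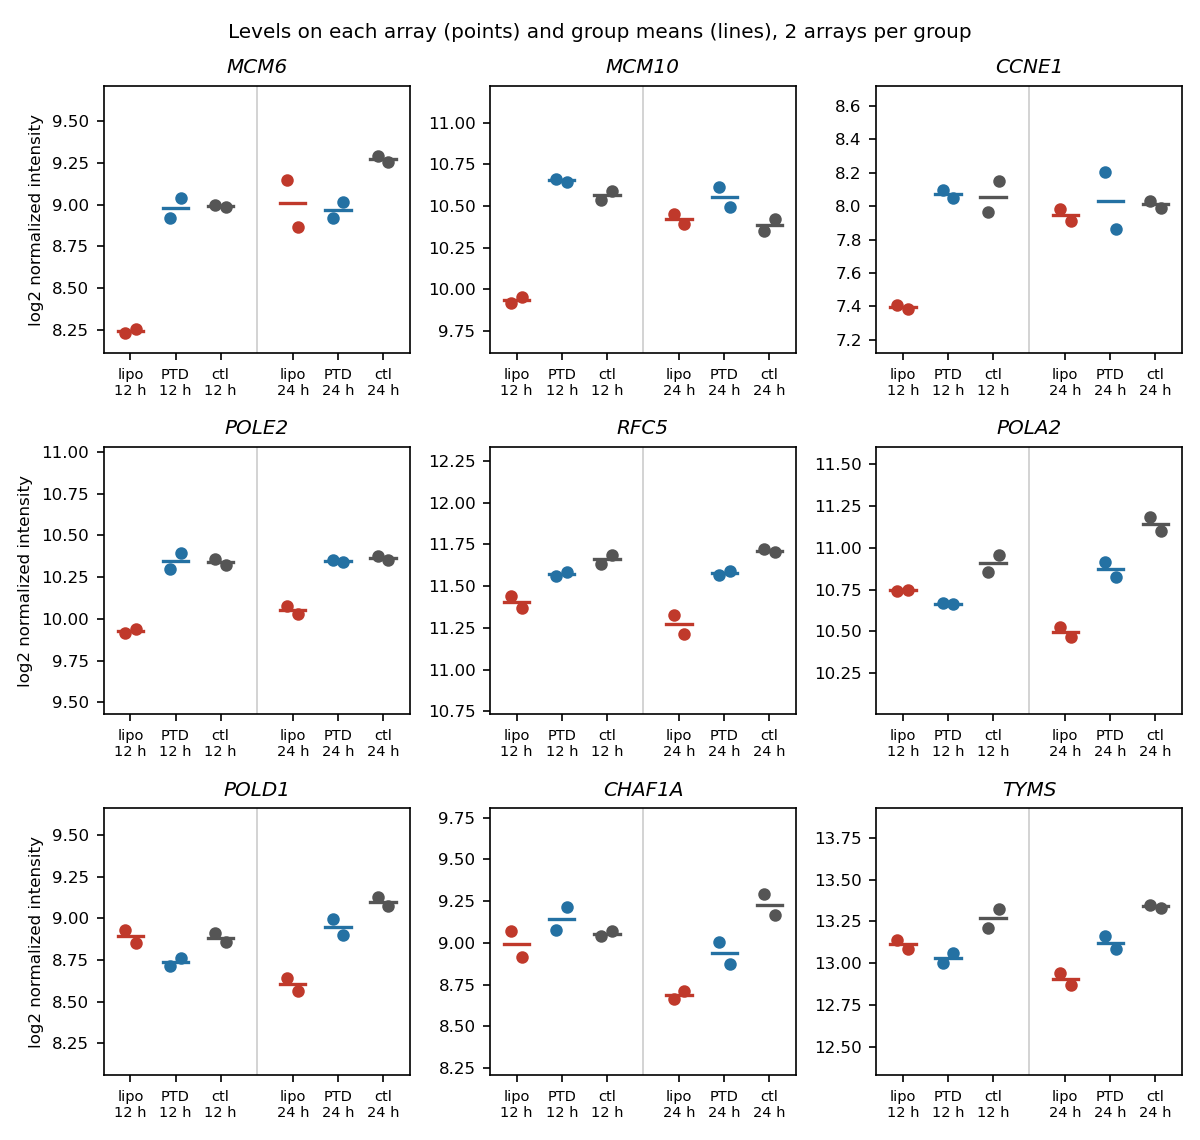
Log2 normalized intensity (y axis) on each array (points) with the group mean (line) for the 9 genes with a call against control that held under every alternative tried, at 12 h and 24 h with lipofection (lipo, red), PTD-DRBD (PTD, blue) and control (ctl, grey). The lipofection arrays of MCM6, MCM10, CCNE1 and POLE2 lie apart at 12 h, and those of RFC5, POLA2, POLD1, CHAF1A and TYMS at 24 h; every panel spans the same range.

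By the probes used, the clamp PCNA and the 5 RFC genes of its loader lay below control with lipofection at both times. RFC2 at 24 h was level with control (-0.002 ± 0.09), and its second probe gave 0.05. Over all genes, 50.1% lay below 0 at 12 h and 50.7% at 24 h. Of the 6 genes, 2 were called lower at each time, 33.3%, against 6.92% and 12.9% of all genes. RFC5 was at 11.44 and 11.37 with lipofection and 11.56 and 11.59 with PTD-DRBD, against 11.64 and 11.69 in control at 12 h (-0.26 ± 0.07, adjusted p = 0.0429). This early call was lost with any 1 of the 4 arrays left out (adjusted p = 0.114 to 0.247). At 24 h RFC5 was at 11.33 and 11.21 with lipofection and 11.56 and 11.59 with PTD-DRBD, against 11.72 and 11.70 in control, 73.6% of control (adjusted p = 0.00203). PCNA, the ring that holds polymerases on DNA, was at 12.61 and 12.75 with lipofection and 12.84 and 12.86 with PTD-DRBD, against 12.92 and 12.96 in control at 12 h. The groups did not overlap, but the call (-0.26 ± 0.08, adjusted p = 0.0455) was lost with any 1 of the 4 arrays left out (adjusted p = 0.0766 to 0.295). A second PCNA probe, also detected on all 12 arrays, fell by 0.44 at 12 h and by 0.46 at 24 h on the log2 scale (limma adjusted p = 0.0131 and 0.00672 over all probes tested). The third and dimmest, at a mean of 5.39 log2, gave 0.06 at 12 h (0.737) and -0.36 at 24 h (0.0190). With every probe tested the 12 h adjusted p of the probe used was 0.0532. At 24 h the probe used for PCNA was at 13.05 and 12.97 with lipofection and 13.07 and 13.12 with PTD-DRBD, against 13.19 and 13.22 in control (-0.19, adjusted p = 0.0862).

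RFC3 fell with lipofection at 24 h, at 9.43 and 9.27, with 9.58 and 9.40 for PTD-DRBD and 9.65 and 9.76 in control (-0.36 ± 0.09, adjusted p = 0.0171). Without the second control array its adjusted p was 0.107, and without the second lipofection array 0.130. Another RFC3 probe of equal brightness fell by 0.58 on the log2 scale at 24 h, and a dim one, detected on 5 arrays, gave -0.03. In that order they gave 0.007 and -0.08 with lipofection at 12 h, so the direction at 12 h depended on the probe. At 12 h RFC3 was at 9.37 and 9.34 with lipofection and 9.59 and 9.72 with PTD-DRBD, against 9.46 and 9.39 in control. RFC1, the large subunit, was called with PTD-DRBD at 24 h, where it was at 8.73 and 8.64 with PTD-DRBD, and 8.88 and 8.67 after lipofection, against 8.96 and 9.06 in control. That difference of -0.33 ± 0.10 (adjusted p = 0.0435) was lost with any 1 of the 4 arrays left out (adjusted p = 0.0675 to 0.239), and at 12 h RFC1 differed by -0.03 with PTD-DRBD and -0.09 with lipofection. RFC4 was not called against control, nor was RFC2 by the probe used, which gave -0.12 with PTD-DRBD at 12 h. A second RFC2 probe, dimmer but detected on all 12 arrays, was higher with PTD-DRBD at 12 h (0.33 ± 0.08, limma adjusted p = 0.0349 over all probes tested), and lower with lipofection than with PTD-DRBD at that time (-0.34 ± 0.08, 0.0184). The RFC2 probes thus disagreed.

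Of the 12 polymerase and Okazaki processing genes, lipofection lowered 2 at 12 h and 4 at 24 h, POLE2 among both. These shares, 16.7% and 33.3%, stand against 6.92% and 12.9% lower over all genes. The effect changed with time for POLA2 and POLD1. POLE2, the B subunit of polymerase epsilon, was at 9.91 and 9.94 with lipofection and 10.30 and 10.39 with PTD-DRBD, against 10.36 and 10.32 in control at 12 h, a difference of -0.42 ± 0.07 (adjusted p = 0.00352). At 24 h it was at 10.08 and 10.03 with lipofection and 10.36 and 10.34 with PTD-DRBD, against 10.38 and 10.35 in control, 80.6% of control (adjusted p = 0.00967). All 4 lipofection arrays of POLE2 lay below the other 8 arrays. The 24 h call had an adjusted p of 0.0527 without the first control array and 0.0650 when the second lipofection array was left out. PRIM1, the catalytic subunit of primase, was at 10.79 and 10.74 with lipofection and 11.02 and 11.11 with PTD-DRBD, against 11.04 and 11.03 in control at 12 h. Its call (-0.27 ± 0.08, adjusted p = 0.0442) was lost with any 1 of the 4 arrays left out (adjusted p = 0.136 to 0.225), and at 24 h it differed by -0.18 (adjusted p = 0.117).

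POLA2, the B subunit of polymerase alpha, had the smallest adjusted p at 24 h. It was at 10.52 and 10.47 with lipofection and 10.92 and 10.83 with PTD-DRBD, against 11.18 and 11.10 in control. Lipofection left 63.9% of control (adjusted p = 0.000274) and PTD-DRBD 82.9% (adjusted p = 0.0373), and the 3 groups did not overlap. The PTD-DRBD call was lost with any 1 of the 4 arrays left out (adjusted p = 0.0552 to 0.228). At 12 h POLA2 was at 10.74 and 10.75 with lipofection and 10.67 and 10.66 with PTD-DRBD, against 10.85 and 10.96 in control, and neither difference passed (adjusted p = 0.195 and 0.0725).

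POLD1, the catalytic subunit of polymerase delta, was at 8.64 and 8.57 with lipofection and 9.00 and 8.90 with PTD-DRBD, against 9.13 and 9.07 in control at 24 h (-0.49 ± 0.08, adjusted p = 0.00132). At 12 h its lipofection arrays, at 8.93 and 8.85, overlapped the control arrays, at 8.91 and 8.86, while PTD-DRBD was at 8.71 and 8.76. POLE, the catalytic subunit of polymerase epsilon, was at 11.68 and 11.59 with lipofection and 11.74 and 11.67 with PTD-DRBD, against 11.89 and 11.98 in control at 24 h. The lipofection call (-0.29 ± 0.08, adjusted p = 0.0210) had an adjusted p of 0.127 without the second control array and 0.133 when the second lipofection array was left out, and at 12 h POLE differed by -0.01. The change with time did not pass for POLE (-0.28 ± 0.11, adjusted p = 0.135). The other genes of this role, POLA1, POLD3, the nuclease FEN1, the ligase LIG1 and the RPA genes, were not called in any comparison with control. POLA1, the catalytic partner of POLA2, was above control with lipofection at 24 h (0.25 ± 0.13, adjusted p = 0.191).

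In nucleotide supply, lipofection lowered 2 of 4 genes at 24 h and none at 12 h, against 12.9% and 6.92% of all genes. The change with time passed for none of the 4 (RRM2 -0.68 ± 0.20, adjusted p = 0.0565). RRM2, the small subunit of ribonucleotide reductase, was at 10.03 and 9.67 with lipofection and 10.46 and 10.09 with PTD-DRBD, against 10.48 and 10.63 in control at 24 h. It was at 61.2% of control with lipofection (adjusted p = 0.00507), the farthest from control of the 46 genes at that time. Without the second lipofection array, the lower of the pair, the difference was -0.53 (adjusted p = 0.0506). RRM2 was also the 1 member listed in the authors' deposited table, which holds folds of 1.6 or more, with a signed fold of -1.61 for lipofection at 24 h. At 12 h RRM2 was at 10.33 and 10.34 with lipofection and 10.47 and 10.65 with PTD-DRBD, against 10.45 and 10.28 in control. TYMS, thymidylate synthase, was at 12.94 and 12.87 with lipofection and 13.16 and 13.08 with PTD-DRBD, against 13.35 and 13.33 in control at 24 h, 74.0% of control (adjusted p = 0.00259). At 12 h it was at 13.14 and 13.08 with lipofection and 13.002 and 13.06 with PTD-DRBD, against 13.21 and 13.32 in control. RRM1, the large reductase subunit, and TK1, thymidine kinase, were not called, with -0.21 ± 0.08 and 0.02 ± 0.11 at 24 h with lipofection.

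Of the 5 genes for chromatin, methylation, repair and histone mRNA, CHAF1A was called. CHAF1A, the large subunit of the chromatin assembly factor that deposits histones behind the fork, was at 8.66 and 8.71 with lipofection and 9.01 and 8.88 with PTD-DRBD, against 9.29 and 9.17 in control at 24 h. It was at 68.7% of control with lipofection (adjusted p = 0.00195), and PTD-DRBD missed the threshold (-0.29 ± 0.09, adjusted p = 0.0517). At 12 h its lipofection arrays, at 9.07 and 8.91, overlapped the control arrays, at 9.04 and 9.07, with PTD-DRBD at 9.08 and 9.21. Its partner CHAF1B lay just outside the threshold with lipofection at 12 h (-0.29 ± 0.09, adjusted p = 0.0507). UHRF1, which brings maintenance methylation to the fork, showed -0.45 ± 0.16 at 24 h with lipofection (adjusted p = 0.0599). UNG, a uracil glycosylase, and SLBP, which binds histone mRNA, were not called against control.

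In all, 25 of the 46 genes were called in none of the comparisons with control. With lipofection their differences ran between -0.29 (CHAF1B) and 0.25 (RPA1) at 12 h, and between -0.45 (UHRF1) and 0.25 (POLA1) at 24 h. With PTD-DRBD they ran between -0.33 (LIG1) and 0.30 (ORC1) at 12 h, and between -0.28 (UHRF1) and 0.16 (RPA2) at 24 h.

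The lipofection effect on 6 of the genes differed between the times, by the test of the difference itself, 3 in each direction. Over all genes, this test called 3.97% higher and 4.02% lower. The effect at 24 h minus that at 12 h was 0.67 ± 0.11 for MCM10 (adjusted p = 0.00748), 0.60 ± 0.15 for CCNE1 (0.0393) and 0.49 ± 0.13 for MCM6 (0.0484). The 12 h falls of these genes were smaller or absent at 24 h, when MCM10 had a mean of 10.42 with lipofection and 10.39 in control. It was -0.50 ± 0.11 for POLD1 (0.0223), -0.48 ± 0.11 for POLA2 (0.0246) and -0.48 ± 0.13 for CHAF1A (0.0423). Their falls at 24 h were smaller or absent at 12 h, when POLD1 had a mean of 8.89 with lipofection and 8.88 in control. The MCM10 result held with any 1 of the 8 arrays left out. The CCNE1 and CHAF1A results were lost with any 1 array left out (adjusted p = 0.0505 to 0.136, and 0.0696 to 0.150). The MCM6 result was lost in all these cases but that without the second lipofection array at 24 h (0.0920 to 0.135), and POLA2 in all but that without the first lipofection array at 24 h (0.0520 to 0.0839). POLD1 held without the first control array at 12 h or the first lipofection array at 24 h, and was lost in the other cases (0.0520 to 0.0875).

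Across the 46 genes, the lipofection differences at 12 h and at 24 h correlated weakly, with Pearson's r of 0.13 and Spearman's rho of 0.21. Over all 12117 genes the values were 0.38 and 0.26. With PTD-DRBD they were 0.08 and 0.13 across the 46 genes, and 0.37 and 0.31 over all genes, so the weak correlation was not particular to lipofection. These are descriptions across genes, which are not independent replicates. For the change of the PTD-DRBD effect with time, no member was called, against 0.124% higher and 0.239% lower over all genes.

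**Figure D4:**
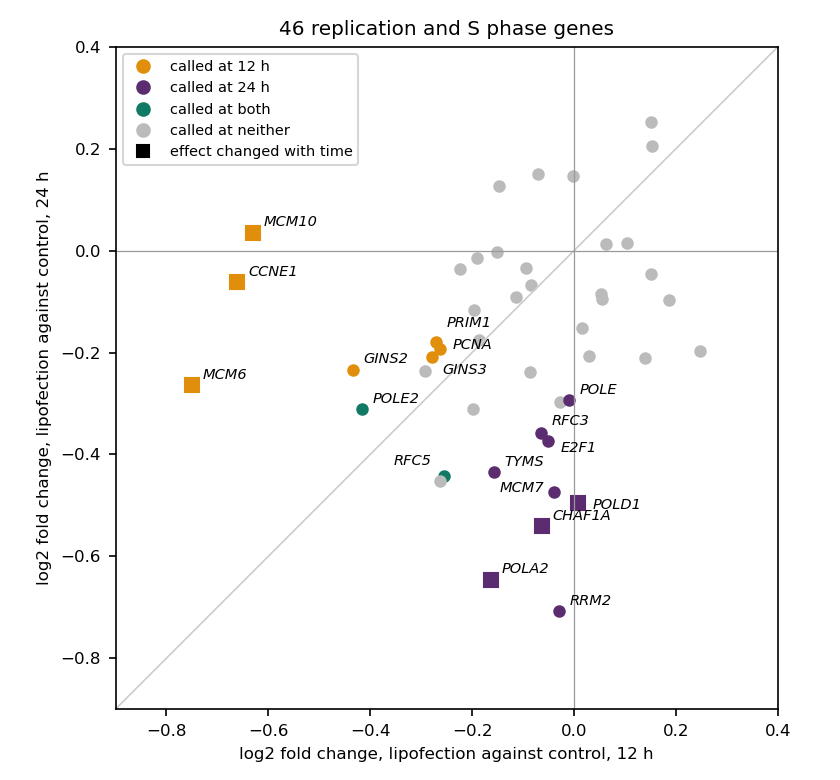
Log2 fold change of each of the 46 genes with lipofection against control at 12 h (x axis) and at 24 h (y axis), with equal scales and a diagonal of equal effect. The 7 genes called at 12 h alone (orange) lie to the left, and the 9 called at 24 h alone (purple) lie to their right and low on the y axis. POLE2 and RFC5 (green) were called at both, and squares mark the 6 genes whose effect changed with time.

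Set directly against PTD-DRBD, lipofection gave 10 lower genes and none higher at 12 h, where 6.51% of all genes were higher and 8.29% lower. MCM6 (-0.74 ± 0.09), MCM10 (-0.72 ± 0.07), CCNE1 (-0.68 ± 0.11) and POLE2 (-0.42 ± 0.07) were called in every setting tried, with adjusted p of 0.000583, 0.000148, 0.00202 and 0.00266. CDC6 (-0.49), CHAF1B (-0.43), GINS2 (-0.36), PRIM1 (-0.30), RFC4 (-0.29) and GINS3 (-0.29) were also called. CHAF1B was at 9.32 and 9.32 with lipofection against 9.75 and 9.75 with PTD-DRBD, and the clamp loader subunit RFC4 at 12.15 and 12.13 against 12.47 and 12.39. Leaving out an array ended these 6 calls. The adjusted p was 0.153 for CDC6 without the second lipofection array and 0.120 without the second PTD-DRBD array, 0.0537 and 0.0552 for CHAF1B without the first or second lipofection array, and 0.0550 to 0.145 for PRIM1 without any 1 array. Without the first lipofection, the second lipofection or the first PTD-DRBD array it was 0.116, 0.0633 and 0.0987 for GINS2, and 0.103, 0.118 and 0.122 for RFC4. For GINS3 it was 0.0718 and 0.151 without the first or second lipofection array, and 0.113 without the second PTD-DRBD array.

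At 24 h this comparison called 1 gene higher (CDT1, 0.34 ± 0.09) and 5 lower (E2F1 -0.38, POLA2 -0.37, POLD1 -0.34, RFC5 -0.30 and POLE2 -0.29), against 4.69% higher and 3.57% lower over all genes. None of these 6 calls held when arrays were left out. POLD1, POLE2 and RFC5 were lost without any 1 of the 4 arrays (adjusted p = 0.0504 to 0.110, 0.0769 to 0.111 and 0.0504 to 0.134). POLA2 was lost without the second lipofection array (0.0643) or the first PTD-DRBD array (0.0823), and E2F1 without the second lipofection, the first PTD-DRBD or the second PTD-DRBD array (0.0818, 0.0833 and 0.0574). CDT1 was lost without the first lipofection, the second lipofection or the second PTD-DRBD array (0.167, 0.0833 and 0.253). These comparisons share their lipofection arrays with those against control, so they are not independent of them.

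In the control cells themselves, 40 of the 46 genes lay above 0 at 24 h against 12 h, with a median of 0.14 log2, where the median of all genes was 0.01. Of the 46, 2 were called higher, 4.35%, and none lower, against 4.15% and 4.56% of all genes. The higher share lies near that of all genes. PRIM1 was at 11.34 and 11.47 at 24 h against 11.04 and 11.03 at 12 h (0.38 ± 0.08, adjusted p = 0.0125), and UNG at 12.51 and 12.55 against 12.28 and 12.26 (0.26 ± 0.07, adjusted p = 0.0392). The PRIM1 call ended when the first control array at 12 h was removed (adjusted p = 0.0730), likewise the second at 12 h (0.0671) or the second at 24 h (0.0987), and that of UNG without any 1 of the 4 arrays (0.112 to 0.175). MCM10 was among the 6 genes below 0 (-0.18 ± 0.07, adjusted p = 0.174). The other UNG probes were higher without passing, by 0.34 and 0.13 (limma adjusted p = 0.136 and 0.5975 over all probes tested). The dimmest PCNA probe passed in this comparison (0.36 ± 0.09, limma adjusted p = 0.0336 over all probes tested), while the other PCNA probes did not.

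Other genes of the same pathways were listed by function, and their counts are to be read against the 4.95% higher and 6.92% lower at 12 h, and 10.6% and 12.9% at 24 h, of all genes with lipofection. Of 33 measured licensing and fork genes outside the 46, lipofection called 1 higher and 5 lower at 12 h, with a median of -0.13 log2, and 1 higher and 11 lower at 24 h, with a median of -0.16. The higher gene was MCM9 at both times, a relative of the MCM subunits that acts in DNA repair. It was at 7.81 and 7.99 with lipofection and 6.76 and 6.85 with PTD-DRBD, against 6.90 and 6.76 in control at 12 h, and at 8.51 and 8.41 with lipofection and 6.85 and 6.66 with PTD-DRBD, against 6.86 and 6.88 in control at 24 h. All 4 lipofection arrays were far above the other 8 (1.07 ± 0.09 and 1.59 ± 0.09 log2, adjusted p = 5.42e-05 and 2.88e-06). Among the falls were DSCC1, a subunit of an alternative clamp loader, at 12 h (-0.46 ± 0.08) and the topoisomerase TOP1 at 24 h (-0.75 ± 0.14). With PTD-DRBD none of this list was called at 12 h, and 1 was higher and 2 lower at 24 h. These shares, 3.03% and 6.06%, stand against 5.87% and 8.15% of all genes. TOP1 was among these lower genes (-0.49 ± 0.14), with a difference of -0.72 to -0.25 when 1 array was left out. The counts that follow are again those with lipofection. With 1 array left out, the number called in this list was 2 in each case at 12 h and 2 to 10 at 24 h, and with the second array of both treated groups left out it was 2 at 24 h.

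Of 24 measured E2F, RB and G1/S regulators, 3 rose and none fell with lipofection at 12 h, and 4 rose and 2 fell at 24 h. The 24 h shares, 16.7% higher and 8.33% lower, lie near those of all genes, 10.6% and 12.9%. CDKN1B, an inhibitor of the cyclin E kinase, was at 9.89 and 9.87 with lipofection and 9.61 and 9.36 with PTD-DRBD, against 9.14 and 9.19 in control at 12 h (0.72 ± 0.10, adjusted p = 0.00152). CCNE1 was low on these lipofection arrays but was not called at 24 h, and a link between the genes was not tested. CDKN1B at 24 h was at 10.19 and 10.06 with lipofection and 9.84 and 9.66 with PTD-DRBD, against 9.61 and 9.79 in control. At 24 h its rise was 0.43 ± 0.10 (adjusted p = 0.0142), lost without the first control array (0.101) or the first lipofection array (0.0679). CDC25A, a phosphatase that activates the same kinase, was at 11.01 and 10.99 with lipofection and 10.82 and 11.01 with PTD-DRBD, against 10.27 and 10.41 in control at 24 h. Both routes raised it at that time (0.66 ± 0.09 and 0.58 ± 0.09, adjusted p = 0.000556 and 0.00346). With PTD-DRBD the list had 1 higher gene at 12 h, and 1 higher and 2 lower at 24 h. These shares were 4.17% higher at 12 h, and 4.17% higher and 8.33% lower at 24 h. They lie near the 3.42%, 5.87% and 8.15% of all genes. Without 1 array the count with lipofection at 12 h was 1 in every case.

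Of 13 measured chromatin assembly genes, lipofection lowered 2 at 12 h and 3 at 24 h and raised none. The helicase-like remodeller HELLS was at 8.07 and 7.83 with lipofection and 8.59 and 8.39 with PTD-DRBD, against 8.64 and 8.68 in control at 24 h (-0.71 ± 0.11), and its partner CDCA7 was lower at 12 h (-0.51 ± 0.08) and 24 h (-0.56 ± 0.08). The maintenance methyltransferase DNMT1 fell by 0.48 on the log2 scale at 24 h, with an adjusted p of 0.0502 when the second 24 h array of each treatment was left out. Of 15 measured nucleotide supply genes outside the 46, 1 fell at 12 h and 4 at 24 h with lipofection, with DUT, which removes dUTP, at -0.52 ± 0.08. All 15 were below control at 24 h with lipofection, and 8 with PTD-DRBD. With PTD-DRBD none of the 15 was called at 12 h, and 1 was higher and 2 lower at 24 h. These shares, 6.67% and 13.3%, stand against 5.87% and 8.15% of all genes. The lower genes were DUT (-0.30 ± 0.08) and SHMT1 (-0.37 ± 0.08), and both calls were lost when an array was left out. None of the 13 chromatin assembly genes was called with PTD-DRBD at either time.

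Genes of the next stages of the cell cycle and the histones were set beside the 46. Of 35 G2 and mitosis genes, lipofection called 12 higher and none lower at 12 h (median 0.19 log2), the time at which 9 of the 46 replication genes were lower, and 2 higher and 19 lower at 24 h (median -0.27). The mitotic kinesin KIF20A was higher at 12 h (0.52 ± 0.09) and lower at 24 h (-0.52 ± 0.09). With 1 array left out, 3 to 6 of the 35 were called at 12 h and 9 to 19 at 24 h. Of 49 measured replication-dependent histone genes, lipofection called 15 higher and 3 lower at 12 h (median 0.23) and 37 higher and none lower at 24 h (median 0.61). The mRNAs of such genes are typically made in S phase and bound by SLBP. Whether the probes report that form of the mRNA was not tested. Of the 49, 14 were not detected on every array, and a gene measured only through the group in which it is high had to differ. H4C2, for example, was detected on all 4 lipofection arrays and on no control array. Over the 35 detected on all 12 arrays, 9 were higher and 3 lower at 12 h (median 0.16), and 28 higher and none lower at 24 h (median 0.73), a count added after the data were seen. The H2B gene H2BC21 was higher by 1.50 ± 0.07 log2 at 24 h. With 1 array left out, 11 to 14 histone genes were called at 12 h and 26 to 36 at 24 h.

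With PTD-DRBD these lists held 1 lower G2 and mitosis gene at 12 h and 2 higher ones at 24 h. Of the histone genes, 1 was higher and 2 lower at 12 h, and 8 higher and 1 lower at 24 h. Over all genes PTD-DRBD called 3.42% higher and 4.46% lower at 12 h, and 5.87% and 8.15% at 24 h. The higher G2 and mitosis genes at 24 h, 5.71%, lie near that share. The higher histone genes at 24 h are 16.3%, and 7 of the 35 detected on all 12 arrays were higher. With 1 array left out, the number called was 0 to 1 and 0 to 2 for the G2 and mitosis genes, and 0 to 1 and 0 to 10 for the histones. The medians of the histones and of the 46 genes lay on opposite sides of 0 with lipofection at both times, while SLBP itself differed by -0.22 ± 0.09 at 12 h (adjusted p = 0.152) and -0.04 ± 0.09 at 24 h (adjusted p = 0.816).

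**Figure D5:**
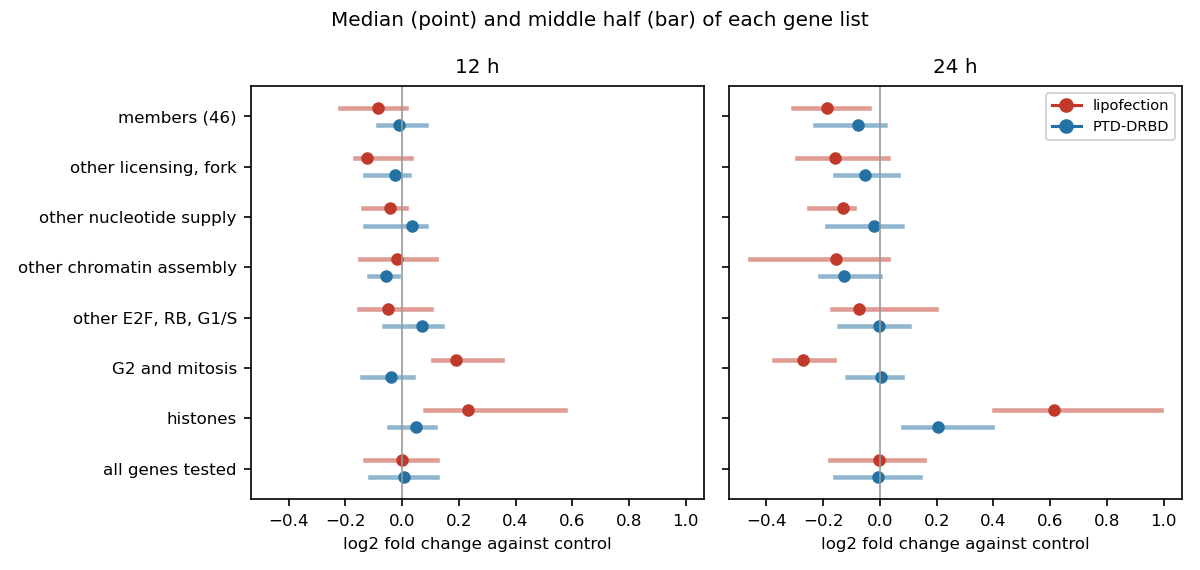
Median (point) and interquartile range (bar) of the log2 fold change against control (x axis) of the 46 genes, 6 other gene lists and all genes tested (rows), at 12 h and 24 h, with lipofection (red) and PTD-DRBD (blue). With lipofection the G2 and mitosis genes lie above 0 at 12 h and below it at 24 h, the histones lie above 0 at both times, and the 46 genes lie at -0.08 and -0.19.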

How the data were processed

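Gene expression in H1299 cells was measured on 12 Illumina bead arrays. The authors deposited raw bead intensity values and a detection p-value per probe and array, read with BeadStudio, per the submitters' processing notes. They also deposited normalized intensity values, with the method not given in the sources used here, and a table of signed folds, a score of at least 1.6 in size. The raw intensities were background corrected by normexp with control parameters inferred from the detection p-values, an offset of 16 was added, and they were quantile normalized and log2 transformed (limma's neqc). Of 48701 probes, 19631 were detected, at a detection p below 0.05, on each array of 1 or more groups, and the probe of highest mean was kept for each of 12117 genes, with names taken from the platform annotation. A linear model with all 6 groups was fitted with limma 3.58.1 in R 4.3.3, with Benjamini-Hochberg adjustment over all genes in each of 9 comparisons. The procedure was tested on simulated data. The 46 genes and the other lists were chosen with earlier results of these data known. All 46 were named, with values on every array for those called against control, and up to 4 called genes with the largest change were named from each other list. The alternatives tried changed the background correction, normalization, detection filter, probe choice, variance model, call rule and arrays used. The number of arrays limits the precision.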

Additional observations from a re-analysis of the deposited data

Results flagged for a closer look

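The effect of lipofection differed between 12 h and 24 h for 6 of the 46 genes, by limma's test of the difference itself. The effect at 24 h minus that at 12 h was 0.67 for MCM10 (adjusted p = 0.00748), 0.60 for CCNE1 (0.0393) and 0.49 for MCM6 (0.0484). It was -0.50 for POLD1 (0.0223), -0.48 for POLA2 (0.0246) and -0.48 for CHAF1A (0.0423). MCM10 alone of these kept its call under every alternative run.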

How the results depend on the processing

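Of 48 calls of member genes, 14 held under every setting tried, up to 18 for a comparison, 34 were lost under at least 1, and none changed direction. With the authors' normalized values, the members called were 19 (1 higher, 18 lower) for lipofection at 24 h, 6 (1 higher, 5 lower) and 7 for PTD-DRBD at 12 h and 24 h, and 5 for control over time. With an intensity trend and robust moderation they were 19 (1 higher), 6 (2 higher, 4 lower), 8 and 6 for the same comparisons, and 12 and 1 for the change with time of the lipofection and the PTD-DRBD effect. With quantile normalization without background correction they were 19 (1 higher), 6 (2 higher, 4 lower), 7 and 7, and 1 for the change of the PTD-DRBD effect. With only the arrays compared in the fit, which leaves fewer arrays to estimate the spread, they were 0 for PTD-DRBD at 12 h and at 24 h, 0 for lipofection against PTD-DRBD at 24 h, and 1 for control over time. With PTD-DRBD at 24 h, cyclic loess and detection on all 12 arrays each gave 5, and at 12 h no detection filter gave 0. With the second 24 h array of lipofection and of PTD-DRBD left out, the counts were 6 for lipofection, 0 for PTD-DRBD, 0 for lipofection against PTD-DRBD and 3 for the change of the lipofection effect. Apart from these constructions, the cause was not tested.

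With each array left out in turn, the members called were 4 to 5 for lipofection at 12 h and 5 to 15 at 24 h, 0 for PTD-DRBD at 12 h and 0 to 2 at 24 h, 4 to 8 for lipofection against PTD-DRBD at 12 h and 0 to 2 at 24 h, 0 to 1 for control over time, 1 to 4 for the change of the lipofection effect and 0 for that of PTD-DRBD. The members' median was -0.11 to -0.09 for lipofection at 12 h, -0.20 to -0.13 at 24 h, -0.04 to 0.03 for PTD-DRBD at 12 h and -0.12 to -0.05 at 24 h. No paired analysis was possible because the replicate numbers only name the arrays in accession order. With 2 arrays in a group, a lone remaining array is assumed to vary like the other groups.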
